A study of Homo sapiens with 6 samples.

Results

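The microRNAs of the HOX gene clusters were followed in the small RNA counts of K562 cells with and without over-expressed RUNX1. The 10 entries were chosen by name and by the position of their precursors: both arms of miR-10a, miR-10b, miR-196a, miR-196b and miR-615 (hsa-miR-10a-5p, hsa-miR-10a-3p, hsa-miR-10b-5p, hsa-miR-10b-3p, hsa-miR-196a-5p, hsa-miR-196a-3p, hsa-miR-196b-5p, hsa-miR-196b-3p, hsa-miR-615-5p and hsa-miR-615-3p), out of 28846 small RNA entries, of which 2596 were microRNAs. Predicted entries are included among these microRNAs. Some of them hold the same values as an annotated arm in every library, for example miR-146b-3p and miR-15a-5p, and are counted beside it. K562 is a human leukemia line with erythroid features, derived from chronic myeloid leukemia in blast crisis. The cells received the lentiviral vector SIEW RUNX1, which expresses human RUNX1 and GFP, or the empty SIEW vector, which expresses GFP only, in 3 independent transductions each, and total RNA was taken after 10 days in culture. Both groups are thus cultures of 1 line in the same medium that received a vector expressing GFP. Whether the K562 cells were sorted for GFP is not given in the sources used here. RUNX1 itself is not among the small RNA entries, so the labels could not be checked on the over-expressed gene.

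MicroRNAs are cut from a hairpin precursor, whose arms are named 5p and 3p, and they repress mRNAs that pair with the seed, bases 2 to 8 of the mature strand. The HOX clusters hold homeobox genes in an order that follows their expression along the body axis, and in blood cells several HOX genes are active in stem and progenitor cells and in leukemia. The hairpins of miR-10 and miR-196 are old, and these microRNAs are known to repress HOX mRNAs, miR-196 for example HOXB8.

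The mature sequences show which entries can be told apart by a read. They come from RefSeq (GRCh38.p14), 5′ to 3′, with the seed in capitals, and are shown for 5 of the tested arms and for miR-196b-5p, the paralog of one of them. The table held 9 of the 10 arms. miR-10b-5p is named only.
hsa-miR-10a-5p: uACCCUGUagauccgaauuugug
hsa-miR-10a-3p: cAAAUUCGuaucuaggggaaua
hsa-miR-196a-5p: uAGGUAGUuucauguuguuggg
hsa-miR-196b-5p: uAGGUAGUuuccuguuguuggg
hsa-miR-615-3p: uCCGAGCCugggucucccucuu
hsa-miR-615-5p: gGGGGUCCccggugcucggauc
miR-196a-5p and miR-196b-5p had the same seed and differed by 1 substitution, A12C (the base of miR-196a-5p, the position from its 5′ end, the base of miR-196b-5p). The mature miR-196a-5p of the 2 precursors MIR196A1 and MIR196A2 is identical, so its counts cannot be assigned to 1 of them. How reads that match several entries were counted is not given in the sources used here, and counts of near-identical paralogs are uncertain for this reason.

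The precursors lie in all 4 HOX clusters (positions on GRCh38.p14, gene context from GENCODE 29 on GRCh38). MIR10A is at chr17:48579838-48579947 on the minus strand, in the HOXB cluster, within an intron of HOXB3 and an exon of at least 1 HOXB4 transcript. MIR196A1, at chr17:48632490-48632559 on the minus strand, lies in the same cluster, in an intron of HOXB7. MIR10B, at chr2:176150303-176150412 on the plus strand, lies in an intron of HOXD3, and HOXD4 starts 809 bases beyond it. MIR196A2, at chr12:53991738-53991847, and MIR615, at chr12:54033950-54034045, are on the plus strand of the HOXC cluster, in introns of HOXC6 and of HOXC4 and HOXC5, respectively. MIR196B, at chr7:27169480-27169563 on the minus strand, overlaps an exon of at least 1 transcript of HOXA9. The hairpin of MIR10A, with the 5p and then the 3p arm in capitals, is shown because its arms changed unequally.
MIR10A: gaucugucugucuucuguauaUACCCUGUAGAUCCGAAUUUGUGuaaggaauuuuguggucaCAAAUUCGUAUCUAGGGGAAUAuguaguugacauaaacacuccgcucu

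The libraries held 1618248 to 6193319 counts in the controls and 7918551 to 15245007 with RUNX1. Counts of replicates differed beyond sampling noise in both groups, and RUNX1 replicate 3 stood apart, at a chi-square of 568 and 364 for each degree of freedom against the other RUNX1 replicates, which differed from each other by 69.3. Within the control group this value was 10.4 to 26.1. It grows with the number of counts, which was lower in the controls, so it does not compare the spread of the groups. Of 6 erythroid microRNA markers all were detected, and miR-451a, which is made in erythroid cells, averaged 2903 CPM in control samples. The erythroid list summed to 4486 to 5115 CPM in the controls. Higher sums there came from the endothelial (47879 to 50850), lymphoid and myeloid (13830 to 15537) and kidney (9050 to 10795 CPM) lists. The sums thus do not single out an erythroid identity. The neural markers summed to at most 0.263 CPM in any library.

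Of the 10 arms, 6 had enough counts to be tested, and the other 4 were at or near 0. miR-196b-3p had no count in any library, which allows a share of up to 2.15e-05% of the counts of the control group and 9.47e-06% of those of the RUNX1 group. miR-10b-3p had 1 count in all, in RUNX1 replicate 1. miR-196a-3p had 0, 2 and 0 counts in the controls and 1, 1 and 0 with RUNX1, and miR-196b-5p had 0, 4 and 1 in the controls and 0, 2 and 2 with RUNX1. miR-196b, the HOXA member, is known for its high level in leukemias with MLL rearrangements. Its expression was at the limit of detection here in both conditions, and no fold change can be given for these 4 arms.

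Upon over-expression of RUNX1, 4 of the 6 tested arms were up-regulated and none was down-regulated. The test was edgeR's quasi-likelihood test across the 947 small RNAs that passed the filter on low counts, and an entry counts as altered below a P-value of 0.05 when its log2 fold change is 0.5 or more in size. By this rule 57.6% of all small RNAs tested were altered, 28% higher and 29.6% lower with RUNX1, and of the 598 microRNAs 56% were altered, 33.4% higher and 22.6% lower. Rises were thus common among all entries. The 4 arms were also those with every RUNX1 library above every control library in CPM, as were 31.4% of all small RNAs and 36.3% of microRNAs. The up-regulated arms were miR-10a-5p, miR-10a-3p, miR-10b-5p and miR-196a-5p, while both arms of miR-615 stayed below the thresholds. Levels are given below as CPM, counts scaled to a common library total by the TMM method, which assumes that most entries are unchanged, while 57.6% were altered here.

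miR-10a-5p, the main arm of MIR10A, had 94004, 379259 and 434956 counts in the controls and 4359095, 2490729 and 1943447 counts with RUNX1. This was 5.81, 6.16 and 7.02% of all counts in the control libraries and 28.6, 29.3 and 24.5% in the RUNX1 libraries. Every RUNX1 library thus lay far above every control library, and the spread within a condition was small beside the distance between them. miR-10a-5p was at place 2 or 3 among the microRNAs of the control libraries, where miR-21-5p came first, and it was the most abundant one in all 3 RUNX1 libraries. On the CPM scale it had 49767 ± 6589 in the controls and 353428 ± 61273 with RUNX1 (SD, 3 libraries each). The log2 fold change was 2.83 (standard error, SE, 0.169, edgeR adjusted p = 2.12e-06), or 7.10-fold. The fold change ranked at place 17 of the 598 microRNAs. The 10 arms together took 6.41% ± 0.623 of the counts in the controls and 27.6% ± 2.57 with RUNX1, a difference of 21.2 percentage points (two-sided exact permutation test, p = 0.1, the smallest that 3 against 3 samples allow). Within this sum miR-10a-5p accounted for 98.8 to 99.6% in every library.

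**Figure D1:**
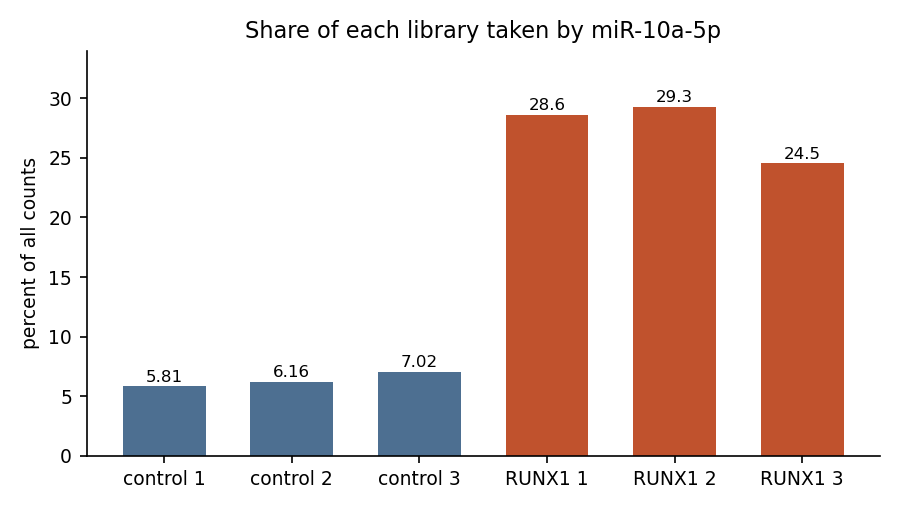
Percent of all deposited counts taken by miR-10a-5p in each of the 6 libraries, as bars from 0 with control in blue and RUNX1 in orange. The control libraries lie between 5.81 and 7.02%, the RUNX1 libraries between 24.5 and 29.3%.

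The TMM factors were from 1.23 to 1.31 in the controls and from 0.735 to 0.866 with RUNX1. With library size as the only scaling, the median log2 fold change of all small RNAs moved from -0.0639 to -0.762, and the log2 fold changes of the 6 tested arms were lower too. With TMM and miR-10a-5p left out of the library sizes and factors, the median was -0.0576 and miR-10a-5p had 2.83. No fit with library size alone left miR-10a-5p out, so what part of the step goes with it was not tested.

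miR-10a-3p, the minor arm of the same hairpin, had 80.3, 75.9 and 76.4 CPM in the controls and 331, 327 and 210 CPM with RUNX1. All RUNX1 samples were above all control samples, with replicate 3 the lowest of them. Its log2 fold change was 1.90 (SE 0.191, edgeR adjusted p = 3.68e-05). The arms of MIR10A rose by different amounts. The log2 ratio of miR-10a-3p to miR-10a-5p counts, which needs no normalization since both come from 1 library, was -9.12, -9.27 and -9.55 in the controls and -10.2, -10.3 and -10.4 with RUNX1. The groups did not overlap, and the ratio fell by 0.953 (two-sided exact permutation test, p = 0.1, adjusted p = 0.157 over 11 ratios).

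miR-10b-5p, from the HOXD cluster, is the close paralog of miR-10a-5p and is best known from invasive breast cancer. It had 339, 362 and 372 CPM in the controls and 1079, 1835 and 1211 CPM with RUNX1. The RUNX1 samples again lay above all control samples, but here replicate 2 was the highest and replicate 1 the lowest. The log2 fold change was 1.94 (SE 0.201, edgeR adjusted p = 4.52e-05). The log2 ratio of miR-10a-5p to miR-10b-5p counts was 7.05, 7.02 and 7.27 in the controls and 8.45, 7.76 and 7.87 with RUNX1, higher by 0.916 in the mean (two-sided exact permutation test, p = 0.1, adjusted p = 0.157). The counts of miR-10b-5p amounted to 0.754, 0.769 and 0.649% of those of miR-10a-5p in the controls and to 0.285, 0.461 and 0.427% with RUNX1. The mature strands are near-identical, and how much of the miR-10b-5p count stems from misread miR-10a-5p was not tested. The other arm of MIR10B, with 1 count, gave no measure of the precursor.

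miR-196a-5p was rare, with 3, 19 and 20 counts in the controls and 193, 105 and 81 counts with RUNX1. This corresponds to 1.43, 2.36 and 2.63 CPM in the controls and 16.7, 16.8 and 11.8 CPM with RUNX1, so the groups were well separated even at this level. The log2 fold change was 2.70 (SE 0.266, edgeR adjusted p = 3.44e-05). The count of control replicate 1 equals the 3 counts taken as the floor of detection. miR-196b-5p, which shares the seed, had 5 counts in the control group and 4 in the RUNX1 group. The log2 ratio of miR-10a-5p to miR-196a-5p counts was 14.7, 14.2 and 14.4 in the controls and 14.5, 14.5 and 14.5 with RUNX1, a difference of 0.0648 (two-sided exact permutation test, p = 0.7), and its sign turned without control replicate 2 (-0.0337) or without a pseudocount (-0.0272). This pair was chosen after the values had been seen.

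By the distance between centred log2 CPM profiles over the 6 samples, the 5 microRNAs nearest to miR-10a-5p among the 597 others were miR-766-3p, miR-340-5p, miR-29c-3p, miR-196a-5p and miR-489-3p, with distances from 0.321 to 0.478. miR-196a-5p was the fourth nearest, at 0.472. With 2 conditions such a distance mainly reflects the size of the fold change. The log2 fold changes of the other 4 were between 2.76 and 3.07.

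**Figure D2:**
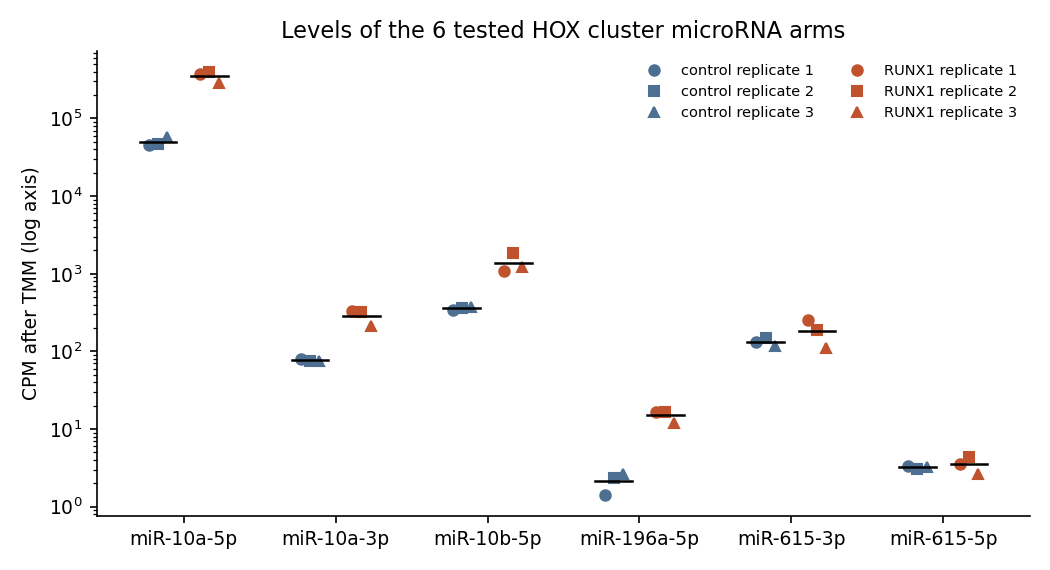
CPM after TMM scaling, on a log axis, of the 6 tested arms in each sample, with control in blue, RUNX1 in orange, marker shape for the replicate number and a black line at the mean. The groups are apart for miR-10a-5p, miR-10a-3p, miR-10b-5p and miR-196a-5p, and overlap for miR-615-3p and miR-615-5p.

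miR-615, whose hairpin lies in the HOXC cluster, did not pass the thresholds. miR-615-3p had 131, 150 and 119 CPM in the controls and 254, 187 and 110 CPM with RUNX1. RUNX1 replicate 3 fell below all control samples and the other two were above them, so the groups overlapped. The log2 fold change was 0.47 (SE 0.266, 95% interval from -0.133 to 1.07, edgeR adjusted p = 0.157). The call depended on RUNX1 replicate 3 and on the count filter. Without that library the log2 fold change was 0.82 (edgeR adjusted p = 1.77e-06), and without the count filter it was 0.57 (adjusted p = 0.0194), both past the thresholds. miR-615-5p had 3.35, 3.10 and 3.29 CPM in the controls and 3.56, 4.32 and 2.63 CPM with RUNX1, with a log2 fold change of 0.12 (SE 0.268, 95% interval from -0.490 to 0.722, edgeR adjusted p = 0.736). The sign for both arms depends on the scaling. With library size alone the log2 fold changes were -0.26 for miR-615-3p and -0.59 for miR-615-5p, and with normalization on microRNAs that of miR-615-5p was -0.08. The ratio of the arms showed no separation of the groups, with a log2 ratio of 3p to 5p of 5.19, 5.57 and 5.14 in the controls and 6.14, 5.41 and 5.35 with RUNX1 (two-sided exact permutation test, p = 0.3).

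The distance between the HOXB member miR-10a and the HOXC member miR-615 could be measured without any scaling. The log2 ratio of miR-10a-5p to miR-615-3p counts was 8.43, 8.29 and 8.92 in the controls and 10.5, 11.1 and 11.3 with RUNX1. It was higher in every RUNX1 library, by 2.43 in the mean (two-sided exact permutation test, p = 0.1, adjusted p = 0.157). This pair, too, was chosen after the values had been seen.

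**Figure D3:**
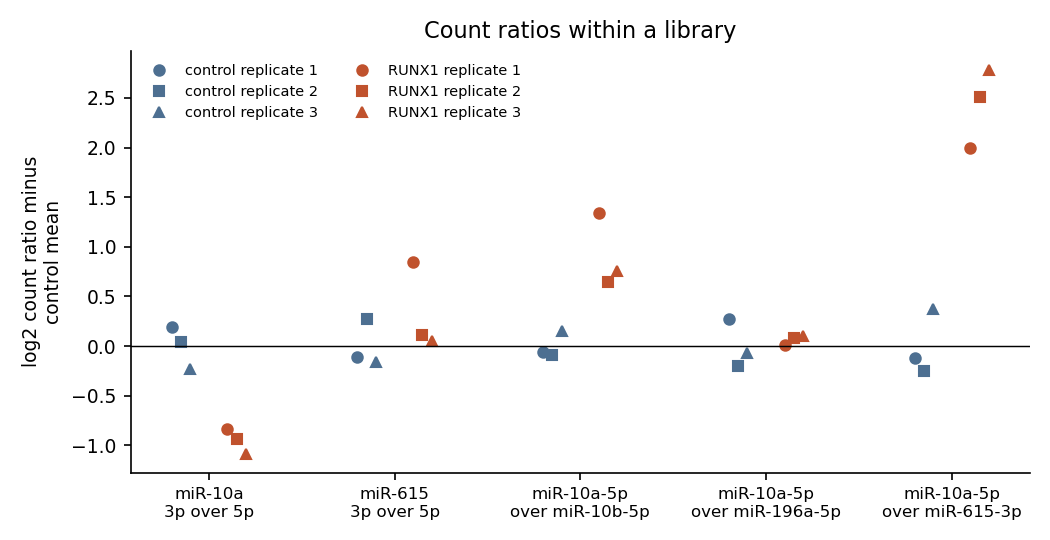
Log2 count ratios within a library for 5 pairs of arms, each minus its mean over the control samples, with control in blue, RUNX1 in orange and marker shape for the replicate number. The ratios of miR-10a-3p to miR-10a-5p, of miR-10a-5p to miR-10b-5p and of miR-10a-5p to miR-615-3p separate the groups, and those of the miR-615 arms and of miR-10a-5p to miR-196a-5p do not.

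The unequal changes altered the order of the members. miR-10a-5p was the highest and miR-10b-5p the next in all 6 libraries. Below them, miR-615-3p had more counts than miR-10a-3p in each control library, for example 1208 against 612 in replicate 2, and fewer in each RUNX1 library, for example 1171 against 2042 in replicate 2. On the CPM scale the ranges of these arms did not overlap in control (119 to 150 against 75.9 to 80.3) but did with RUNX1. At the lower end miR-615-5p, with 7, 25 and 25 counts, was above miR-196a-5p, with 3, 19 and 20, in each control library. In RUNX1 samples miR-196a-5p had more counts than miR-615-5p, with 41, 27 and 18, in each library. The control order of this pair rests on few and close counts, with miR-196a-5p at the floor of 3 in replicate 1, and was not tested. Mature strands are of like length, 22 or 23 bases, but adapters are ligated to different strands with unequal efficiency, so counts rank the reads and not the molecules.

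Of the other microRNA entries in the HOX clusters, miR-3185 in HOXB had no count, and miR-7704 in HOXD, the cluster of MIR10B, was down-regulated. It had 247, 1045 and 891 counts in the controls and 358, 203 and 515 with RUNX1, a log2 fold change of -1.40 (SE 0.314, edgeR adjusted p = 0.00395). The miR-99, miR-100 and miR-125 arms are distant relatives of miR-10, and the seeds of miR-99a-5p and miR-100-5p, both ACCCGUA, begin as that of miR-10a-5p does. Of 11 such arms 7 were tested, none was up-regulated and 2 were down-regulated, with a median log2 fold change of -0.42 beside 0.11 over all 598 microRNAs. A count of 2 lower of 7 is close to the 29.6% lower among all small RNAs and the 22.6% among microRNAs. The shares higher were 28% and 33.4%, beside none of the 7. The down-regulated ones were miR-99a-5p, with -1.68 (SE 0.248), and miR-100-5p, with -1.94 (SE 0.341). miR-99b-5p, the most abundant of them, had 32720 ± 4911 CPM in the controls and 23720 ± 10312 CPM with RUNX1 (SD, 3 libraries each) and was not altered. The seed of miR-196 overlaps that of let-7, GAGGUAG, by a shift of a base. Of 9 tested let-7 family guide arms, let-7a-5p passed the thresholds, with a log2 fold change of 0.62 (SE 0.217), and 8 did not. The median over the 9 was 0.15. A count of 1 higher of 9 is below the 28% higher among all small RNAs and the 33.4% among microRNAs. The let-7a-5p call was lost without control replicate 2 or 3.

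**Figure D4:**
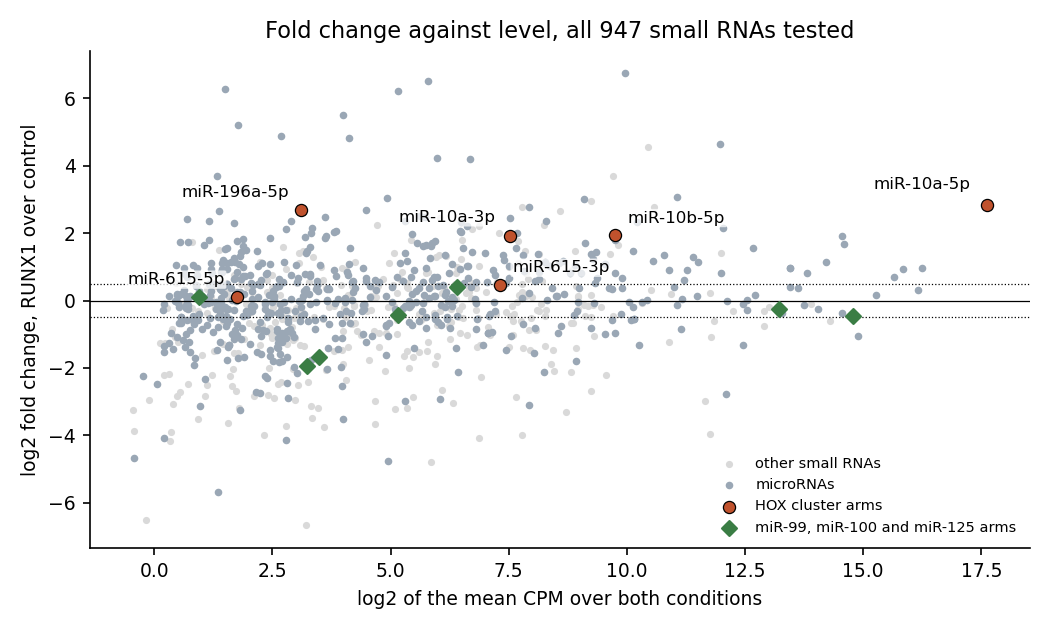
Log2 fold change of RUNX1 over control against the log2 of the mean CPM for the small RNAs tested, with microRNAs in blue-grey, other classes in light grey, the 6 HOX cluster arms in orange and the related miR-99, miR-100 and miR-125 arms as green diamonds. Dotted lines mark 0.5 and -0.5. miR-10a-5p is the rightmost point, at 2.83, and none of the green diamonds lies above 0.5.

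Markers of several cell types also differed between the groups. Their counts stand beside a background of 28% higher and 29.6% lower among all small RNAs, and 33.4% and 22.6% among microRNAs. The muscle and stroma list, of which 3 of the 8 entries found in the files were tested and all 3 were higher, summed to 71.0 to 75.3 CPM in the controls and to 1959 to 2162 CPM with RUNX1. With RUNX1 most of the sum was miR-143-3p, at a mean of 1986 CPM beside 95.9 CPM for miR-145-5p. In the controls most of it was miR-145-5p, at 54.5 CPM beside 18.7 CPM for miR-143-3p. Of the defining muscle microRNAs in this list, miR-1 had 0, 1 and 0 counts in the controls and 70, 29 and 42 with RUNX1 and was called higher. miR-133a-3p had no count in the controls and 5, 0 and 1 with RUNX1, miR-133b had none in the controls and 5, 0 and 7 with RUNX1, and miR-206 was at 0 in all libraries. Of the stromal ones, miR-214-3p had 0, 1 and 0 counts in the controls and 21, 9 and 30 with RUNX1. miR-199a-3p had no count in the controls and stayed near 0 with RUNX1, at 2, 1 and 0. Neither had enough counts to be tested. The lymphoid and myeloid list, with 4 of 4 tested entries higher, summed to 13830 to 15537 CPM in the controls and to 37132 to 54043 CPM with RUNX1. Of the epithelial list, 3 of 4 tested entries were higher, with sums of 55.8 to 63.7 CPM in the controls and 166 to 181 CPM with RUNX1. The erythroid list summed to 4486 to 5115 CPM in the controls and to 2395 to 3790 CPM with RUNX1, with 1 entry higher and 3 lower of 6. The kidney list had 1 of 3 entries higher, miR-204-5p, and summed to 9050 to 10795 CPM in the controls and to 11625 to 13567 CPM with RUNX1. The endothelial list, both arms of miR-126, was lower with RUNX1, with 13568 to 40195 CPM beside 47879 to 50850 CPM in control. The part of any of these in the rise of the HOX cluster arms was not tested. In bulk RNA, more cells that express a microRNA and more copies per cell cannot be told apart.

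**Figure D5:**
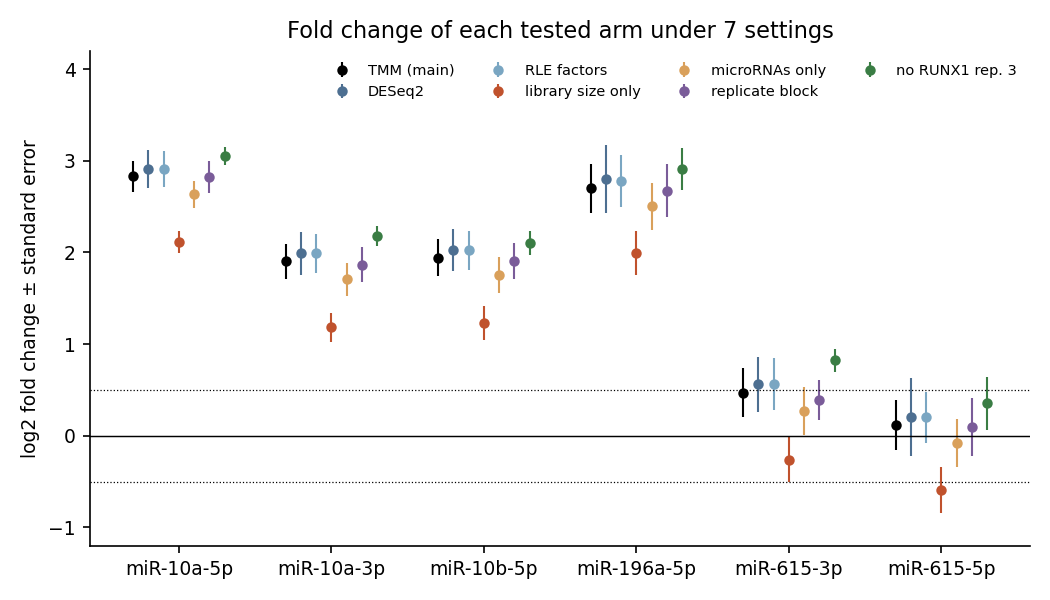
Log2 fold change of RUNX1 over control with its standard error for the 6 tested arms under 7 settings, with dotted lines at 0.5 and -0.5. The 4 up-regulated arms stay above 1 in all of them, with library size only the lowest. The miR-615 arms lie on either side of 0. Both are below it with library size only, and miR-615-5p also with normalization on microRNAs.

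The size of the rise depended on the scaling and the direction did not. Across 14 or 15 other fits per arm, the log2 fold change was between 2.12 and 3.05 for miR-10a-5p, between 1.18 and 2.18 for miR-10a-3p, between 1.23 and 2.12 for miR-10b-5p and between 1.99 and 2.91 for miR-196a-5p. Library size alone gave the lowest of each. All 4 passed the thresholds in every fit in which they were tested. The p-values measure the spread between the 3 transductions of each condition in 1 cell line.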

How the data were processed

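Small RNA libraries of 6 K562 samples were made by the authors with the TruSeq Small RNA kit from 1000 ng of total RNA, sequenced as single reads of 51 nt on a HiSeq2000 and demultiplexed with CASAVA 1.8.2 (submitters' processing notes, which list hg19). The deposited values are raw counts per small RNA entry, without normalization. The authors used the OASIS small RNA platform with its standard parameters for the differential test. Which aligner and counter made the deposited counts, and how multiply matching reads were handled, are not given in the sources used here. Conditions and replicate numbers come from the sample titles. For RUNX1 replicate 1 the name of the library holds, beside the title number, a 2 where replicate 2 has the same, so the numbers behind the pairing check and the replicate block are uncertain. The library names carry a different letter for each condition, and if this marks a preparation, it cannot be told apart from the condition.

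Counts were fitted in R 4.3.3 with edgeR 4.0.16 (filterByExpr, minimum count 10 and total 15, TMM, glmQLFit, glmQLFTest, condition as the only term) on the whole table, with Benjamini-Hochberg adjustment over 947 entries. DESeq2 1.42.0 was an alternative. The 5 summary rows of each file held no counts and were left out. Shares and log2 ratios (0.5 added to each count) were compared by exact permutation tests. The floor was 3 counts, or 1.97e-05% to 0.000185% of a library, and floors cover counting error only. The biological coefficient of variation was 0.181. The fit was also run on simulated counts with the same variation for all entries, where 200 of 940 tested entries were changed. It called 99.5% of the changed and 4.19% of the unchanged entries. Fewer entries were changed there than the 57.6% called altered in the real data, so the simulation does not cover such a shift. Named entries were the 10 members, the 5 nearest profiles and the most abundant entries of each list. The members and lists were chosen with earlier results of these data known. From the lists, miR-7704, miR-99a-5p, miR-100-5p, let-7a-5p and single markers were also named for their values. The main fit used no replicate block, because the titles do not say that the numbers mark shared cultures. In a check for pairing, deviations from the group means were correlated between samples of the same number. The correlations were -0.0283, -0.0834 and 0.0238.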

Additional observations from a re-analysis of the deposited data

How the results depend on the processing

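Of 290 values for 21 results under the alternatives, 5 turned in sign, 2 newly passed the thresholds and 16 counts changed by more than 1.5 times. Among the other 267, counts within 1.5 times were taken as unchanged, and fold changes under another threshold repeat those of the same fit. Without a count filter, 382 small RNAs and 5 member arms were called higher. With library size only, the log2 fold change turned to -0.261 for miR-615-3p and to -0.592 for miR-615-5p. In that fit 120 small RNAs were called higher and 521 lower in place of 265 and 280. The 1 member arm called lower there was miR-615-5p. Of the miR-10 relatives 5 and of the let-7 arms 5 were altered, in place of 2 and 1. Normalization on microRNAs gave -0.0813 for miR-615-5p, 4 relatives and 0 let-7 arms. A log2 fold change of at least 1 left 170 small RNAs higher, 0 let-7 arms and 1 erythroid marker. At least 10 counts in every sample also left 0 let-7 arms, and miR-196a-5p and miR-615-5p could then not be tested. With each replicate left out in turn, 0 to 1 let-7 arms and 2 to 4 erythroid markers were altered (0 without control replicate 2 or 3, and 2 without control replicate 1 or 3). The cause of these differences was not tested. With the replicate block, 259 small RNAs were called higher and 287 lower, miR-10a-5p had 2.82 and 0 let-7 arms were altered. No call of a member arm changed under the block. The ratio of miR-10a-5p to miR-196a-5p turned to -0.0272 without a pseudocount and ranged from -0.0337 to 0.199 with replicates left out. The 3 counts of miR-196a-5p in the shallowest library limit its precision.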
